A study of Mus musculus with 4 samples.

Results

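The nuclear-encoded subunits of respiratory complexes II to V were examined in lungs carrying 4T1 metastases from saline and cmLumiOpto/PARPi mice. Members were the protein-coding genes of the deposited table with the symbols Sdha to Sdhd, Cyc1, or symbols starting with Uqcr, Cox4 to Cox8 or Atp5, and 50 of the 56748 genes in the table met this rule. The symbols alone matched 62 genes, and the other 12 were not annotated as protein-coding. Complex II contributed 4 genes, complex III 9, complex IV 19 and complex V 18, none of them on the mitochondrial genome.

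All mice were young adult female BALB/cJ mice given 4T1-FLuc cells through the tail vein, 4T1 being a mouse triple-negative breast cancer (TNBC) line and FLuc the firefly luciferase used for imaging. The saline group (2 libraries) received vehicle only. The cmLumiOpto/PARPi group (2 libraries) received CD276 mAb-Exo-AAV, an antibody-coated exosome-associated virus carrying the cmLumiOpto genes under a cfos promoter, together with ViviRen, the luciferase substrate that makes the light, and olaparib, the PARP inhibitor (PARPi), over 3 weeks. The cmLumiOpto construct is a light-gated channel and a luciferase directed to mitochondria, and it depolarizes the inner membrane. The labels call the control PBS and the material harvested tumour cells, whereas the methods of the study describe saline and dissociated lung tissue. No library used here came from mice given the vector or olaparib alone, so their contributions cannot be told apart. The study also treated 4T1 mice with cmLumiOpto alone, but that group has no library here. The sources used here do not state that each library came from 1 mouse, so the p-values measure the spread between these libraries only.

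Complex II (succinate dehydrogenase) takes electrons from succinate and passes them to ubiquinone, and it is also an enzyme of the citric acid cycle. Complex III (cytochrome bc1) moves electrons from ubiquinol to cytochrome c and pumps protons, complex IV (cytochrome c oxidase) reduces oxygen, and complex V (ATP synthase) uses the proton gradient across the inner membrane to make ATP. Complexes III to V combine a few subunits made from mitochondrial DNA with many made from nuclear genes, while complex II is entirely nuclear-encoded, and several complex IV subunits exist as broadly expressed and tissue-restricted isoforms.

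Gene counts summed to between 15263375 and 16755228 per library, and the saline libraries differed from each other by more than counting noise (chi-square per degree of freedom 24.1), as did the treated ones (41.1). Levels are given as CPM, counts of a gene relative to the TMM-scaled library total, and 3 counts, the floor taken for detection, corresponded to 0.179 to 0.197 CPM, which covers counting error only. Fold changes are cmLumiOpto/PARPi against saline on the log2 scale, from edgeR's quasi-likelihood test over 15167 genes with Benjamini-Hochberg adjustment. In bulk tissue, more cells of a type and more RNA per cell cannot be told apart.

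Of the 50 members, 46 had enough counts for the test. Cox7b2, Cox8c and a second gene entry named Atp5o had 0 counts in all libraries, and Cox8b had 2 and 0 counts in saline and 5 and 1 in cmLumiOpto/PARPi. One member, Cox5b-ps, carries a pseudogene name but a protein-coding annotation. The muscle isoform Cox6a2 reached the filter level of 0.614 CPM in 1 saline and both treated libraries, and the testis isoform Cox6b2 reached it only in the treated libraries, so these genes entered the test through the group in which they were higher.

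No member passed an adjusted p of 0.05, nor did any of the 15167 genes (0% called), the smallest adjusted p for both being 0.138 by edgeR. At an unadjusted p under 0.05, 26 of the 46 tested members were higher after cmLumiOpto/PARPi, against 9.21% of all genes, and 0 were lower, against 12.0% of all genes. Counts at p under 0.05 by complex and list are likewise unadjusted. DESeq2 gave 24 higher and 0 lower members at an unadjusted p under 0.05, against 8.23% and 11.3% of the same 15167 genes, and 10 higher and 0 lower at an adjusted p under 0.05, against 2.06% and 4.27%. In 40 members the treated libraries were both higher than either saline library, against 27.4% of all genes tested, in 0 both lay below, against 27.8%, and in 6 the groups overlapped. The log2 fold change was above 0 in 44 members, against 52.0% of all genes, with a median of 0.44 against 0.02 for all genes. Without the 4 tissue-restricted isoforms of complex IV, 23 of 42 members had p under 0.05, 36 lay above saline in both treated libraries, and the median was 0.38.

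The summed level of all members was 6862 and 6921 CPM in saline and 8177 and 8678 CPM in cmLumiOpto/PARPi, a difference of 22.3% between the means. The members took 0.680% and 0.665% of all counts in saline and 0.848% and 0.874% after treatment. The treated sums thus exceeded both saline sums, although with 2 against 2 an exact two-sided permutation test cannot go below 0.33. Neither treated library was higher throughout, since the first exceeded the second in 19 tested members and the reverse held in 27. The median log2 fold change of the members was 0.39 without saline library 1 and 0.38 without saline library 2. It was 0.39 without treated library 1 and 0.41 without treated library 2. Most members kept their direction in each of those 4 fits. The 7 members with the largest log2 fold changes, outside the tissue-restricted isoforms, also stayed above 0. They were picked from these same libraries, so this is no separate evidence. Their lowest values were 0.78 for Uqcr11, 0.82 for Uqcrh, 0.79 for Uqcrq and 0.67 for Uqcr10 of complex III. In complex V they were 0.67 for Atp5e, 0.56 for Atp5md and 0.60 for Atp5k. With an offset for transcript length, described further on, the median over all tested members was 0.13. At p under 0.05, 8 members were then higher, against 6.80% of all genes, and Uqcr10, Atp5md and Atp5k were not among them. Without the tissue-restricted isoforms the median with this offset was 0.12, and 6 of 42 members had p under 0.05.

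**Figure D1:**
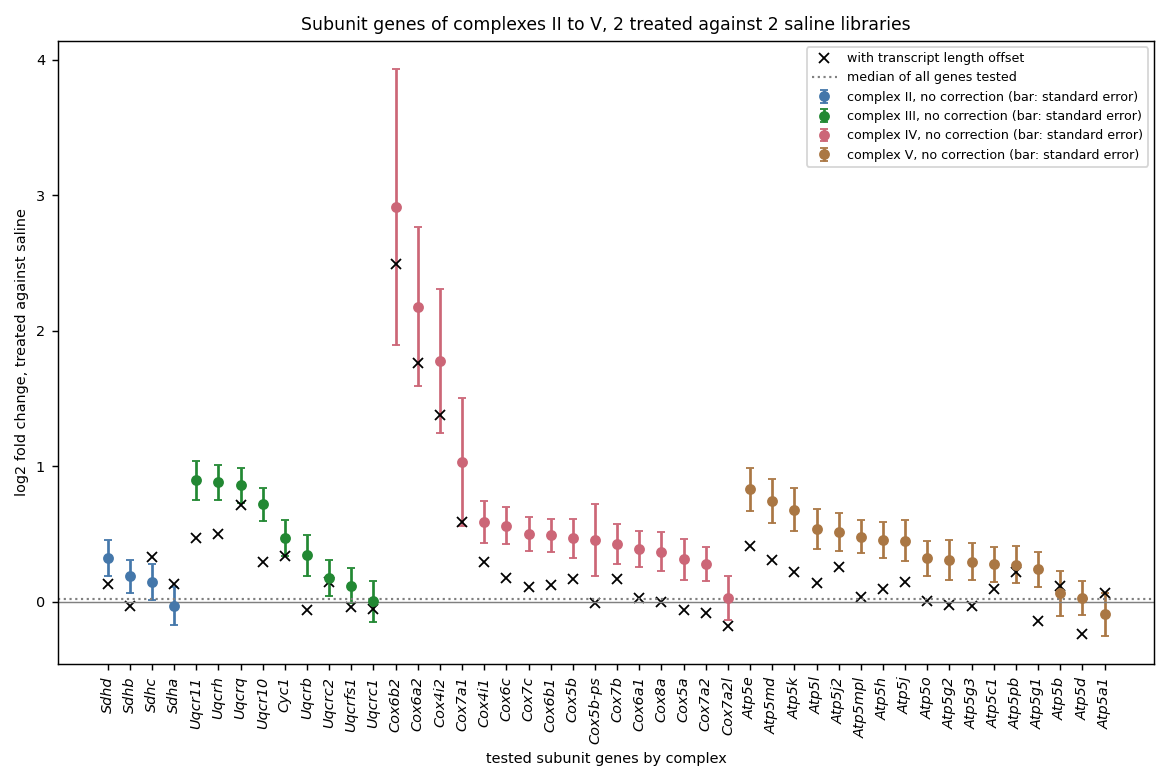
Log2 fold change (cmLumiOpto/PARPi against saline) of the 46 tested subunit genes, ordered within complexes II, III, IV and V. Coloured points with bars are estimates with standard errors, crosses are estimates with a transcript length offset, and the dotted line is the median of all genes tested (0.02); 44 points lie above 0, and most crosses lie nearer to 0.

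**Figure D2:**
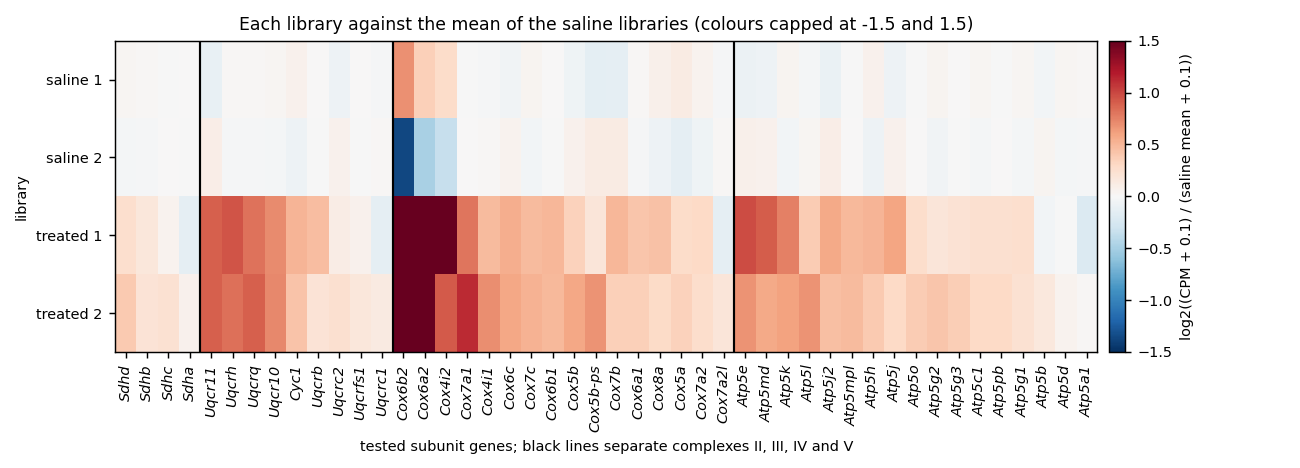
Level of each tested subunit gene in each of the 4 libraries, as the log2 ratio of CPM to the mean of the saline libraries after adding 0.1 CPM, with colours capped at -1.5 and 1.5. Both treated rows are red for most genes, while Sdha, Uqcrc1, Cox7a2l, Atp5b, Atp5d and Atp5a1, the 6 members whose groups overlapped, are pale or mixed.

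Promoter windows were examined because many of these genes lay on the same side of saline and because NRF1 and the ETS factor GABP are textbook activators of respiratory genes. RefSeq windows of 300 bases around the start of transcription (GRCm38.p6) were given for 36 of 49 member symbols. The windows shown are those of the large core subunit of complex III, Uqcrc1, of its small subunits Uqcr11 and Uqcrh, of the ATP synthase subunit Atp5e, and of the broad and muscle isoforms Cox7a2 and Cox7a1. Capitals mark matches on either strand to the full NRF1 consensus or to the ETS motif CCGGAAG (reverse complement CTTCCGG), and each window reads 5′ to 3′ along its gene.
Uqcrc1 (chr9:108936398-108936697, + strand): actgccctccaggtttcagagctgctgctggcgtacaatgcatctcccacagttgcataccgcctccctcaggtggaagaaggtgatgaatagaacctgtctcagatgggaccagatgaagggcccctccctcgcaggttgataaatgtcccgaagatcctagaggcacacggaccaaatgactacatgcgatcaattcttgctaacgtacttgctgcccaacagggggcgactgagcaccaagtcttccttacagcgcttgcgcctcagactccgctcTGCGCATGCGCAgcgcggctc
Uqcr11 (chr10:80406772-80407071, - strand): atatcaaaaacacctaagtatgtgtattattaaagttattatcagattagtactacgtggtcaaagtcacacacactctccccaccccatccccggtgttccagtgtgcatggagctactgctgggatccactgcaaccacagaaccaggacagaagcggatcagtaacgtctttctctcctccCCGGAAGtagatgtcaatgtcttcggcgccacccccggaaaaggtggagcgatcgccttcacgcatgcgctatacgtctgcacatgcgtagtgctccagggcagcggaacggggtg
Uqcrh (chr4:116075021-116075320, - strand): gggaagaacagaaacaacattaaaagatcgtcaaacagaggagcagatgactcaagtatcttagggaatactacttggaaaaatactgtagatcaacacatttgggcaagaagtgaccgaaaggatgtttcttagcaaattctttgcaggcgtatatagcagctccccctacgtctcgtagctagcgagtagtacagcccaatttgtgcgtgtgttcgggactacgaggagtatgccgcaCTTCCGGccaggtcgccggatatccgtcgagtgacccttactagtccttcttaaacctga
Atp5e (chr2:174464052-174464351, - strand): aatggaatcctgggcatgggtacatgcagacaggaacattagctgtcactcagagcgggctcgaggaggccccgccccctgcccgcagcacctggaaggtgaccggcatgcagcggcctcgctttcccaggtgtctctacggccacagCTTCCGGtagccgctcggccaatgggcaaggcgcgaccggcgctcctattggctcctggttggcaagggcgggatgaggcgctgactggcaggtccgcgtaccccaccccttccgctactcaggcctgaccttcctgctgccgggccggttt
Cox7a2 (chr9:79759804-79760103, - strand): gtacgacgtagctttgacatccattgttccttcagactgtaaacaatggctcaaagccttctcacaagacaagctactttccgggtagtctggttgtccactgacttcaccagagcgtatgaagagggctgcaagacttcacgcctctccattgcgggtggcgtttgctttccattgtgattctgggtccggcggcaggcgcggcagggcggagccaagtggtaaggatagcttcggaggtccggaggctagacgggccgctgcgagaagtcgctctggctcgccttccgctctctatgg
Cox7a1 (chr7:30183921-30184220, + strand): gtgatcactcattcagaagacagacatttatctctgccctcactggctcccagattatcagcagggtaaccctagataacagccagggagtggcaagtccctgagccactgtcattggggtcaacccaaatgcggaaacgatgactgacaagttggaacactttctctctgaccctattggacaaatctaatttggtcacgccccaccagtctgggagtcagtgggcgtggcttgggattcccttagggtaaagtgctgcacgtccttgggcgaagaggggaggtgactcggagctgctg

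Uqcrc1 held 1 NRF1 match, each of Uqcr11, Uqcrh and Atp5e held 1 ETS match, and Cox7a2 and Cox7a1 held neither. Among member genes with a window, 4 (11.1%) held the NRF1 consensus, namely Sdhd, Uqcrc1, Atp5c1 and Atp5g2, against 1.41% of all genes with a window and 3.01% of the tested ones. A looser form of this motif, searched first, was in 10 members (27.8%), against 5.19% and 10.5%. The ETS motif was found in 13 (36.1%), against 9.93% and 18.8%, and no NRF1 and ETS match overlapped in a member window. The median log2 fold change was 0.29 among the 4 tested members with the NRF1 consensus and 0.44 among the 30 without it, and 0.49 among the 13 with the ETS motif and 0.30 among the 21 without it, with ranges that overlapped in both cases. These fold changes carry no length offset, and the groups without a motif include the tissue-restricted isoforms Cox6b2 and Cox7a1. Uqcr10 (0.72) held neither motif, Sdhb (0.19) held the ETS motif and Sdhd (0.32) held both. The shown windows with an ETS match belong to members with large fold changes, so they do not represent all 13. Uqcrq, Cox4i1, Cox6c and Cyc1 had no window. Whether a motif bears on the fold change was not tested. Of the other motifs searched on both strands, AAGATGGCG (YY1) was in 2 members (5.56%, against 1.64% of all genes and 3.27% of the tested ones), GGGCGG (SP1) in 14 (38.9%, against 38.2% and 66.7%), TATAAA in 4 (11.1%, against 15.7% and 9.20%) and the muscle factor motif MEF2 in 0 (against 0.636% and 0.49%).

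Without a length offset, complex II had the smallest median log2 fold change of the 4 complexes, 0.17. Its summed level was 547 and 540 CPM in saline and 566 and 628 CPM in cmLumiOpto/PARPi, a difference of 9.87% between the means. Its median was 0.09 without treated library 2 and 0.22 without treated library 1. With an offset for transcript length it was 0.13, above the 0.09 of complex V, and with one for coding length, added after seeing the data, 0.14, above the 0.12 of complex IV. Sdhd, a membrane anchor subunit, was measured at 120 and 116 CPM in saline and 140 and 154 CPM after treatment (log2 fold change 0.32, SE 0.13, unadjusted p = 0.0495, adjusted p = 0.235 by edgeR). Both treated values were higher, and Sdhd was the only one of the 4 subunits with an unadjusted p under 0.05.

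Sdhb, the iron-sulfur subunit, lay at 89.9 and 88.1 CPM in saline and 100 and 103 CPM in cmLumiOpto/PARPi (0.19, SE 0.12). Sdhc, the other membrane anchor, lay at 147 and 149 CPM against 154 and 173 CPM (0.14, SE 0.13). Both genes were higher in both treated libraries by amounts close to their standard errors. Sdha, the flavoprotein that oxidizes succinate, was at 191 and 188 CPM in saline and 173 and 198 CPM after treatment (-0.03, SE 0.14), so the treated values lay on either side of saline.

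Without a length offset, the small accessory subunits of complex III had larger fold changes than its core subunits. The 5 small accessory genes, Uqcr10, Uqcr11, Uqcrb, Uqcrh and Uqcrq, had a median log2 fold change of 0.86, with 4 of 5 at p under 0.05 and all 5 higher in both treated libraries. The 4 core and catalytic genes, Uqcrc1, Uqcrc2, Uqcrfs1 and Cyc1, had a median of 0.15, with 1 of 4 at p under 0.05. The ratio of the summed CPM of the accessory genes to that of the core genes, which is not corrected for length and is read only between libraries, was 0.606 and 0.597 in saline and 1.00 and 0.877 in cmLumiOpto/PARPi. The accessory genes also have the shorter coding sequences, 168 to 333 bases against 822 to 1440 bases. With an offset for transcript length the medians were 0.47 for the accessory genes, with 3 of 5 at p under 0.05, and 0.05 for the core genes, with 0 of 4. With one for coding length they were closer, 0.38 with 3 of 5 and 0.25 with 2 of 4, against 6.49% of all genes fitted with it in the higher direction.

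Uqcrh, the hinge protein that helps cytochrome c dock on cytochrome c1, was measured at 103 and 101 CPM in saline and 195 and 180 CPM after treatment (log2 fold change 0.88, SE 0.13, adjusted p = 0.138 by edgeR). Uqcrq, a small accessory subunit, was at 53.1 and 51.7 CPM in saline and 92.2 and 97.8 CPM after treatment (0.86, SE 0.13). Uqcr11, the smallest complex III subunit by coding length, was at 45.0 and 52.4 CPM against 90.6 and 90.7 CPM (0.90, SE 0.14). The groups were far apart in all 3 genes relative to the difference within each group. Uqcrh lies at chr4:116066965-116075071, Uqcrq at chr11:53427922-53430831 and Uqcr11 at chr10:80402997-80406830 (GRCm38, GENCODE M21, whole genes).

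Uqcr10, another small subunit, lay at 67.1 and 64.0 CPM in saline and 107 and 108 CPM after treatment (0.72, SE 0.12). Cyc1, the heme-bearing cytochrome c1, was the core member with the largest difference, at 73.1 and 66.2 CPM against 99.5 and 93.4 CPM (0.47, SE 0.13). The core protein Uqcrc1 was at 220 and 226 CPM in saline and 203 and 245 CPM after treatment (0.00, SE 0.15), so its groups overlapped. The remaining Uqcrb, Uqcrc2 and Uqcrfs1, the last encoding the Rieske iron-sulfur protein, had log2 fold changes of 0.34, 0.18 and 0.12, with both treated libraries above saline in each.

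In complex IV all 16 tested members had a log2 fold change above 0, 11 of them at p under 0.05, and the median was 0.48. The broadly expressed members, without the tissue-restricted isoforms, numbered 12, of which 8 had p under 0.05, and their median was 0.44. With an offset for transcript length their median was 0.07, with 1 of 12 at p under 0.05, against 6.80% of all genes. By coding length their median was 0.05. The summed level of the complex was 1921 and 1928 CPM in saline and 2518 and 2663 CPM in cmLumiOpto/PARPi, a difference of 34.6% between the means. The saline libraries were nearly equal and both treated libraries were higher.

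Cox4i1, the broad isoform of the regulatory subunit 4, was at 467 and 477 CPM in saline and 656 and 764 CPM after treatment (log2 fold change 0.59, SE 0.16, adjusted p = 0.148 by edgeR). Per length of transcript it was also the highest of the 11 broadly expressed complex IV genes compared, at 634 RPKM in saline against a median of 205 RPKM. Cox6c was measured at 176 and 190 CPM against 266 and 274 CPM (0.56, SE 0.13, adjusted p = 0.138), the smallest in the complex. Cox7c, a subunit with near-identical copies, was at 114 and 108 CPM against 155 and 159 CPM (0.50, SE 0.13).

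Cox6b1, which faces the intermembrane space, was at 111 and 110 CPM in saline and 156 and 155 CPM after treatment (0.49, SE 0.12). Cox6a1, the broad isoform of subunit 6a, was at 233 and 228 CPM against 308 and 297 CPM (0.39, SE 0.13), and Cox8a, of subunit 8, at 225 and 204 CPM against 292 and 262 CPM (0.37, SE 0.14). Cox7b was at 74.4 and 89.1 CPM against 115 and 105 CPM (0.43, SE 0.15), while its testis counterpart Cox7b2 had no counts. Each of these lay higher in both treated libraries, with p under 0.05.

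Cox7a2, the broad isoform of subunit 7a, was at 86.0 and 79.3 CPM in saline and 101 and 99.3 CPM after treatment (0.28, SE 0.13, adjusted p = 0.269). Cox7a2l, a relative that helps join complexes III and IV into supercomplexes, was at 274 and 283 CPM against 253 and 316 CPM (0.03, SE 0.16). Cox7a2l was the only tested complex IV member whose groups overlapped. The rest of the complex, Cox5a, Cox5b and Cox5b-ps, had log2 fold changes of 0.31, 0.47 and 0.46, with Cox5b alone at p under 0.05.

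The tissue-restricted isoforms were measured at low levels. Because Cox6a2 and Cox6b2 entered the test through the treated libraries, nothing is read from the size of their fold changes. Cox4i2, known as the lung isoform of subunit 4, was at 3.95 and 2.52 CPM in saline and 16.0 and 6.20 CPM in cmLumiOpto/PARPi (log2 fold change 1.77, SE 0.53, adjusted p = 0.168 by edgeR). Cox6a2, of heart and skeletal muscle, was at 0.815 and 0.409 CPM against 3.51 and 2.11 CPM (2.18, SE 0.59, adjusted p = 0.149). Cox6b2, of testis, had 5 and 0 counts in saline and 23 and 20 counts after treatment (2.91, SE 1.02, adjusted p = 0.199), and Cox7a1, also of muscle, had 15 and 14 counts against 30 and 36 (1.03, SE 0.47, adjusted p = 0.275). Both treated libraries were higher in all 4 genes, but the first treated library had more than the second for Cox4i2, Cox6a2 and Cox6b2, and the reverse held for Cox7a1.

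These isoforms remained a small part of their pairs. On a scale per transcript length, Cox4i2 made up 0.860% and 0.538% of Cox4i1 and Cox4i2 together in saline and 2.44% and 0.825% after treatment, so its share overlapped between the groups. Cox6a2 made up 0.293% and 0.150% of its pair against 0.947% and 0.593%, and Cox7a1 made up 1.80% and 1.98% of Cox7a1 and Cox7a2 together against 2.78% and 3.53%. Without treated library 1, the log2 fold change of Cox4i2 was 0.93, and across the fits without 1 library those of Cox6b2 ran from 1.97 to 2.96, leaving aside the fit without saline library 1, where the remaining saline library had 0 counts and the fold depends on the prior count.

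**Figure D3:**
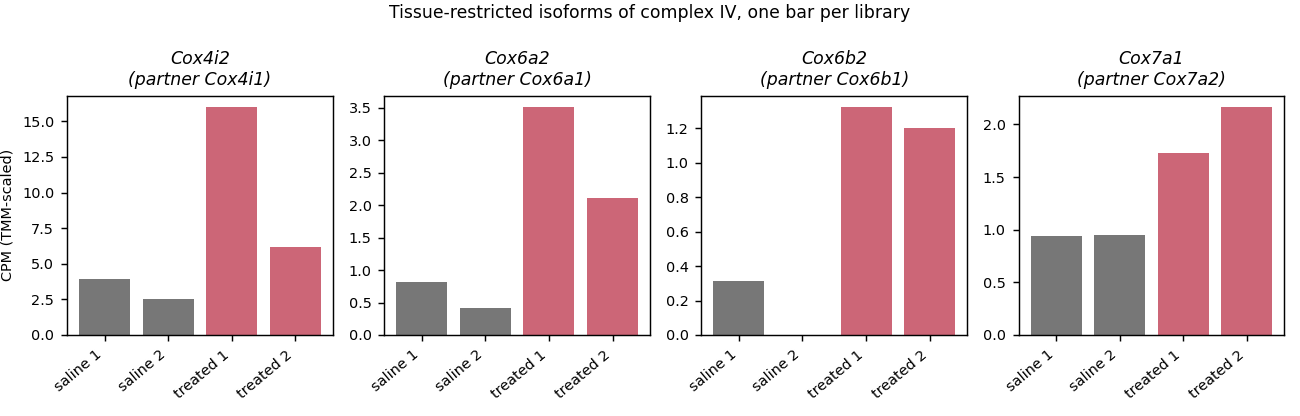
TMM-scaled CPM of the tissue-restricted complex IV isoforms Cox4i2, Cox6a2, Cox6b2 and Cox7a1, with 1 bar per library (grey saline, red cmLumiOpto/PARPi) and a linear axis starting at 0 in each panel. Both red bars exceed both grey bars in every panel, and no level exceeds 16.0 CPM.

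Several lists of cell type markers also differed between the groups. The 6 airway club cell markers summed to 1187 and 98.9 CPM in saline and 5886 and 3240 CPM in cmLumiOpto/PARPi. All 6 lay higher in both treated libraries, against 27.4% of all genes tested. Scgb1a1 led them, at 1088 and 74.7 CPM against 5305 and 2794 CPM. The 8 ciliated cell markers summed to 14.6 and 7.63 CPM against 73.7 and 39.7 CPM. The 8 alveolar type 2 markers summed to 1719 and 464 CPM against 8328 and 2973 CPM. Of these 8, 7 lay higher in both treated libraries, against the same 27.4%. In each of these lists the first treated library and the first saline library were the higher of their group. The same order held for Cox4i2, Cox6a2 and Cox6b2. Cox7a1 had the reverse order, at 0.941 and 0.954 CPM in saline and 1.73 and 2.17 CPM after treatment. With 2 libraries a group, nothing is read from this order. The tumour epithelium list, 10 genes made up of keratins, claudins, Epcam and Spp1, summed to 7539 and 8883 CPM in saline and 8169 and 11815 CPM after treatment, so its groups overlapped.

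Muscle markers were at low levels apart from Tnnt2. The 11 cardiac markers summed to 103 and 93.5 CPM in saline and 68.6 and 158 CPM after treatment, of which Tnnt2 gave 96.5 and 89.9 CPM against 59.6 and 144 CPM. Nppa was at 0 in 3 libraries and Myl7 in 2, while Actc1 was at 0.753 and 0.341 CPM against 3.74 and 2.11 CPM. The 9 skeletal markers summed to 12.3 and 10.4 CPM against 13.6 and 16.1 CPM, with Ckm at 0 in 3 libraries. The 7 brown adipocyte markers, cells rich in Cox7a1 and Cox8b, summed to 118 and 141 CPM against 96.0 and 81.4 CPM, nearly all from Dio2 and Fabp4, and Ucp1 never exceeded 6 counts. The part of these cell types in the values of the subunit genes was not tested.

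In complex V, the order of the parts of the enzyme by their fold change depended on the length offset. The summed level was 3561 and 3609 CPM in saline and 3996 and 4253 CPM in cmLumiOpto/PARPi. Of 17 tested members, 9 were higher at p under 0.05, against 9.21% of all genes, with a median log2 fold change of 0.32. With an offset for transcript length 1 of 17 had p under 0.05, against 6.80% of all genes. With one for coding length it was 2 of 17, against 6.49%. The 5 small membrane accessory genes, Atp5md, Atp5k, Atp5l, Atp5j2 and Atp5mpl, had a median of 0.54 and all had p under 0.05. The 4 peripheral stalk genes, Atp5pb, Atp5h, Atp5j and Atp5o, had a median of 0.39 with 3 of 4 at p under 0.05, the 3 genes of the rotating c ring a median of 0.30 with 0 of 3, and the 5 genes of the catalytic F1 head a median of 0.06 with 1 of 5. With an offset for transcript length the medians were 0.22 for the membrane accessory genes, 0.12 for the stalk and 0.09 for the head. With one for coding length the order turned, at 0.30 for the head with 2 of 5 at p under 0.05, 0.22 for the stalk and 0.18 for the membrane accessory genes with 0 of 5.

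Atp5e, the epsilon subunit and the shortest member by coding length, was measured at 80.5 and 90.2 CPM in saline and 168 and 136 CPM after treatment (log2 fold change 0.83, SE 0.16, adjusted p = 0.138 by edgeR). Atp5md, a subunit that helps ATP synthase form dimers, was at 68.5 and 75.5 CPM against 135 and 106 CPM (0.74, SE 0.16). Atp5k, subunit e, was at 26.4 and 24.8 CPM against 43.2 and 38.9 CPM (0.68, SE 0.16). All 3 lay higher in both treated libraries, with the first treated library above the second.

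Of the remaining head subunits, Atp5b, Atp5a1 and Atp5d lay close to saline. Atp5b, the catalytic beta subunit and the highest of complex V per length at 511 RPKM in saline, was at 949 and 1010 CPM in saline and 950 and 1096 CPM after treatment (0.06, SE 0.16). Atp5a1, the alpha subunit, was at 775 and 757 CPM against 666 and 772 CPM (-0.09, SE 0.16), and Atp5d, the delta subunit, at 166 and 159 CPM against 162 and 169 CPM (0.03, SE 0.13). In these 3 genes the groups overlapped, while Atp5c1, the gamma shaft, lay higher in both treated libraries (0.27, SE 0.13, adjusted p = 0.292).

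The 3 c subunit genes encode the same mature protein behind different import signals. Atp5g1 was at 56.3 and 54.4 CPM in saline and 66.0 and 64.7 CPM after treatment (0.24, SE 0.13), Atp5g2 at 174 and 163 CPM against 192 and 225 CPM (0.31, SE 0.15), and Atp5g3 at 211 and 209 CPM against 244 and 272 CPM (0.30, SE 0.14). All lay higher in both treated libraries with p above 0.05. Per transcript length, their division was similar in the groups, with Atp5g3 giving 47.1% to 48.2% of the c subunit RNA, Atp5g2 36.7% to 38.6% and Atp5g1 13.6% to 15.5% over the 4 libraries.

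The log2 fold change varied with gene length. Across the 46 tested members, the log2 fold change had a Spearman rho of -0.66 with transcript length and -0.69 with coding length, and across 15034 genes with a transcript model it had a rho of -0.42 with transcript length. These values are across genes, which share the same libraries and are not independent replicates. Atp5e (coding length 156 bases) and Uqcr11 (168) stood at the short end, and Sdha (1992), Atp5a1 (1659), Atp5b (1587) and Uqcrc1 (1440) at the long end. Other short members had smaller log2 fold changes, among them Atp5mpl (174 bases, 0.48), Cox8a (207, 0.37) and Cox7a2 (249, 0.28).

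With a smooth length offset in the fit, the rho over members was -0.12 with transcript length and -0.30 with coding length, 33 members had a log2 fold change above 0 (against 50.6% of all genes), and 8 had p under 0.05 in the higher direction, against 6.80% of all genes. These were Uqcrq (0.72), Uqcrh (0.50), Uqcr11 (0.47), Sdhc (0.33), Cox4i1 (0.29), Cox4i2 (1.38), Cox6a2 (1.77) and Atp5e (0.41). Without the tissue-restricted isoforms, 6 of 42 members (14.3%) had p under 0.05 and 29 of 42 had a log2 fold change above 0, with a median of 0.12. The median for complex III was then 0.29, for complex IV 0.15, for complex V 0.09 and for complex II 0.13. Without the tissue-restricted isoforms, the complex IV median was 0.07, with 7 of 12 members above 0 and 1 of 12 at p under 0.05. In the c ring all 3 genes were just below 0, with a median of -0.03, and the median of the 5 membrane accessory genes was 0.22 with 0 at p under 0.05. Uqcrq has annotated transcripts of very unequal length, and with coding length in place of transcript length, its value was 0.45, that of Uqcrh 0.53, of Uqcr11 0.38 and of Cyc1 0.48. Whether RNA quality or library preparation differed between the groups was not tested.

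**Figure D4:**
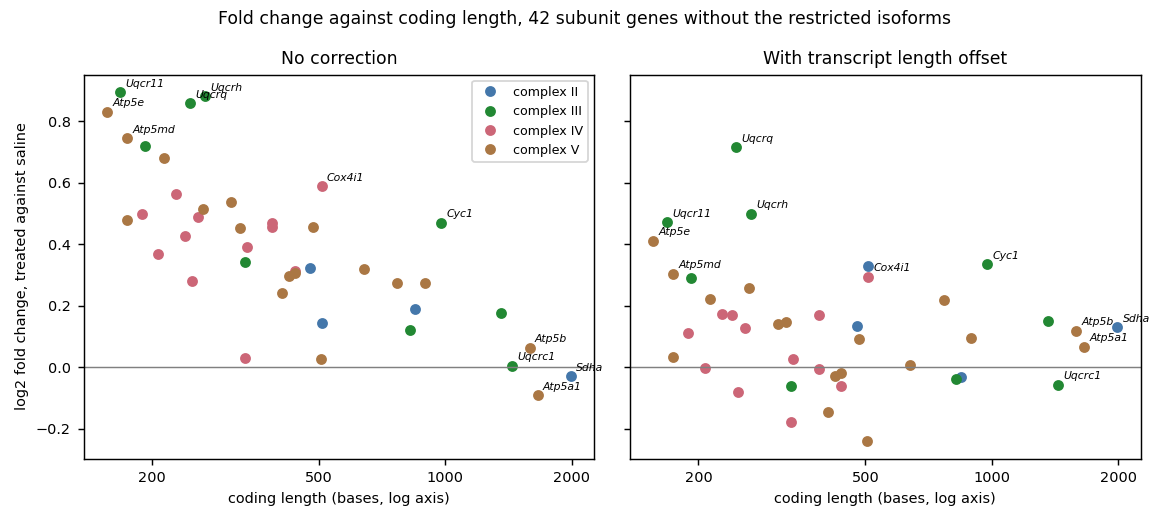
Log2 fold change against coding length (bases, log axis) for the 42 tested subunit genes without the tissue-restricted isoforms, coloured by complex, without correction (left) and with a transcript length offset (right). The points slope downward on the left, from Atp5e and Uqcr11 to Sdha and Atp5a1, and lie nearer to 0 on the right, where Uqcrq, Uqcrh and Uqcr11 are the highest.

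Copies with nearly the same sequence limit the counts of some members. With at least 95% identity over at least 80% of the coding length, 17 members had such a gene, 37 genes in all, and in 9 members the copies held more than 5% of the counts of the member. The copy of Atp5g1, the processed pseudogene Gm10039, held 139% of the counts of Atp5g1. Copies of Atp5l held 37.3%, of Cox7c 21.3%, of Atp5h 15.2% and of Cox5b 12.9%, the last being Cox5b-ps. Adding the copies gave log2 ratios of means of 0.21 for Atp5g1, 0.58 for Atp5l, 0.52 for Cox7c, 0.47 for Atp5h and 0.47 for Cox5b, each close to the fold change of the member alone. How reads were divided among copies is uncertain in these genes. The second entry named Atp5o and the gene Gabpa overlap Atp5o and Atp5j, respectively, and no strand setting of the counting is given in the sources used here, so reads in the shared stretches cannot be assigned to either gene with certainty.

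Genes that build the complexes showed a mixed pattern. Of 37 tested assembly factors for complexes II to V, 8 were higher and 1 lower at p under 0.05, against 9.21% and 12.0% of all genes, and the median log2 fold change was 0.24. Both treated libraries lay above saline in 18 and below in 5, against 27.4% and 27.8% of all genes. With an offset for transcript length the median was 0.05 with 20 of 37 above 0, and with one for coding length -0.03 with 16 of 37 above 0. Cox14, which couples Cox1 synthesis to complex IV assembly, was at 27.8 and 33.9 CPM in saline and 67.1 and 55.6 CPM after treatment (0.99, SE 0.18). Coa3, its partner, was at 38.4 and 30.8 CPM against 71.4 and 61.2 CPM (0.94, SE 0.18), and the complex III factor Uqcc2 at 45.5 and 53.5 CPM against 103 and 80.1 CPM (0.89, SE 0.18). Coa5 lay below saline at 130 and 108 CPM against 90.6 and 92.0 CPM (-0.38, SE 0.14), as did the mitochondrial mRNA stability factor Lrpprc (-0.40, SE 0.16, adjusted p = 0.236) and the heme A enzyme Cox10 (-0.38, SE 0.20).

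Cycs, the cytochrome c that carries electrons from complex III to complex IV, was at 58.0 and 52.4 CPM in saline and 86.3 and 68.5 CPM after treatment (0.49, SE 0.17, adjusted p = 0.193). Ndufa4, first assigned to complex I and later to complex IV, was at 99.6 and 85.1 CPM against 158 and 135 CPM (0.66, SE 0.15, adjusted p = 0.138). Both were higher in both treated libraries. The hypoxia-linked relative Ndufa4l2 lay the other way, at 12.2 and 8.65 CPM against 7.60 and 7.70 CPM (-0.44, SE 0.28). The list of cytochrome c and late assigned subunits, with 6 tested genes, had a median log2 fold change of 0.48 with 5 above 0. With an offset for transcript length its median was 0.16 with 4 above 0, and with one for coding length 0.06 with 3 above 0.

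The subunits made from mitochondrial DNA lay higher in treated libraries too, with a wide gap between those libraries. The median log2 fold change of the 5 tested genes was 0.64. Of these, 2 were higher at p under 0.05, against 9.21% of all genes. With an offset for transcript length the median was 0.48 with 0 at p under 0.05, and with one for coding length 0.72 with 2. For complex III, mt-Cytb was at 1911 and 2180 CPM in saline and 3772 and 2288 CPM after treatment (0.57, SE 0.28). For complex IV, mt-Co1 was at 4660 and 4640 CPM against 8267 and 5484 CPM (0.56, SE 0.26), mt-Co3 at 66.9 and 59.3 CPM against 124 and 77.3 CPM (0.67, SE 0.24, adjusted p = 0.202) and mt-Co2 at 84.4 and 56.6 CPM against 140 and 79.1 CPM. For complex V, mt-Atp6 was at 47.0 and 50.0 CPM against 160 and 72.1 CPM (1.26, SE 0.36, adjusted p = 0.161), and mt-Atp8 had at most 6 counts. The first treated library was the highest for all of the 5 tested genes, and the groups overlapped for mt-Co2 only, whereas it was the higher treated library in 19 of the 46 nuclear-encoded members.

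General markers of mitochondrial mass lay close to saline. The 17 genes of this list, which hold import, matrix and carrier proteins, had a median log2 fold change of 0.05 and a summed level of 4090 and 4126 CPM in saline and 3963 and 4445 CPM after treatment. The import receptor Tomm22 (0.34, SE 0.12) and the scaffold Phb (0.34, SE 0.13) had p under 0.05. These were 2 of 17 genes, against 9.21% of all genes in the higher direction, and 0 were lower, against 12.0%. With the transcript length offset 1 of 17 was higher, against 6.80%. Citrate synthase (Cs) was at 202 and 207 CPM against 162 and 189 CPM (-0.22, SE 0.14).

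Transcription factors and coactivators of respiratory genes had a median log2 fold change of -0.22. Of 13 tested, 5 had a value above 0 and 8 below, and both treated libraries lay above saline in 2 and below in 4, against 27.4% and 27.8% of all genes. Esrra, a nuclear receptor that activates respiratory genes, was at 36.7 and 38.0 CPM in saline and 48.8 and 46.3 CPM after treatment (0.35, SE 0.14, adjusted p = 0.234), and Gabpa, the DNA-binding subunit of GABP, was at 74.5 and 89.5 CPM against 61.6 and 65.4 CPM (-0.37, SE 0.15, adjusted p = 0.235). The groups did not overlap in either gene. With the transcript length offset the median of the list was 0.09 and the value of Gabpa -0.07, so the direction of the list turned. By coding length the median of the list was -0.07 with 5 of 13 above 0, so the turn depended on the length used. Ppargc1a, the coactivator PGC-1α, had 4 and 3 counts in saline and 11 and 8 after treatment.

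**Figure D5:**
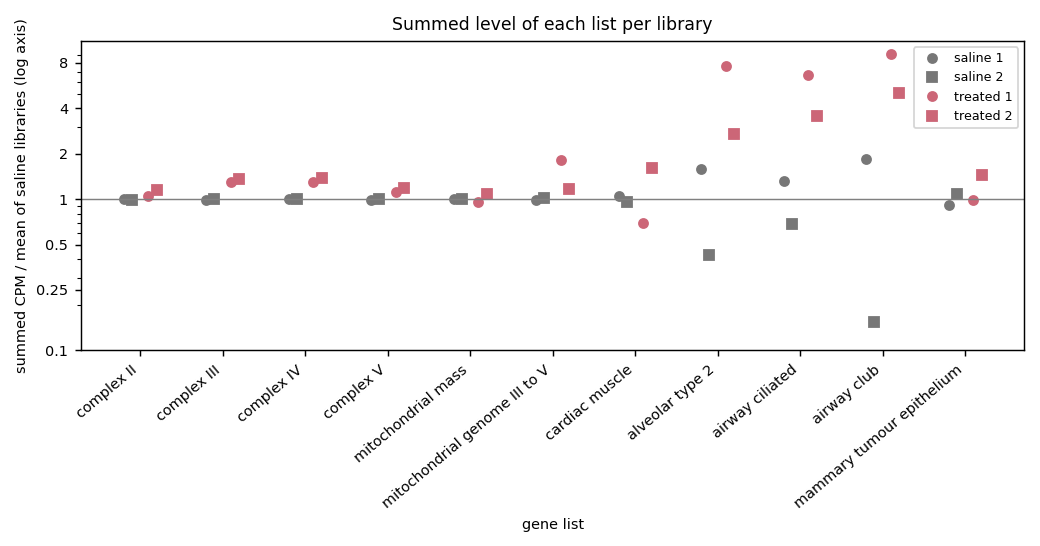
Summed CPM of each complex and of related and marker gene lists in each library, divided by the mean of the saline libraries (log axis). Complexes II to V and the mitochondrial mass list stay near 1, from 0.96 for the mass list in treated library 1 to 1.38 for complex IV in treated library 2, whereas the alveolar and airway lists span a wide range in both groups.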

How the data were processed

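Bulk poly(A) RNA was sequenced from 2 saline and 2 cmLumiOpto/PARPi lung samples. The authors mapped reads with HISAT2 and deposited whole-number counts per gene, not normalized, with gene symbols and biotypes. The counter and its strand setting are not given in the sources used here. The methods name GRCm38 and the submitters' processing notes mm39, and 2.92% of gene positions in the table equal GENCODE M21, so printed gene positions are those of GENCODE M21 and promoter windows those of RefSeq, both GRCm38.

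Counts were tested with edgeR 4.0.16 (TMM, filterByExpr with a minimum count of 10, quasi-likelihood test, Benjamini-Hochberg threshold 0.05), with group as the only term. Standard errors (SE) were taken as the absolute log2 fold change over the root of the F statistic. Lengths are those of 1 principal GENCODE M21 transcript per gene, and RPKM is TMM-scaled CPM per kilobase of it. The length offset is a loess trend (span 0.5) of each library's deviation in log2 CPM on log2 length and mean log2 CPM. Near-identical genes were found with BLAST. The NRF1 and MEF2 motifs were first searched with N at ambiguous positions, and the full consensus was put in their place after the values were seen. Alternatives were RLE scaling, DESeq2 1.42.0, no filter, the non-legacy fit, the replicate block, length offsets and leaving out each library. The code was tested on simulated data.

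The members and lists were chosen with earlier results of these data known. Values per library are given for the isoform pairs, c subunits and complex II, for the 3 members of each complex with the smallest p in either direction, and for members with a log2 fold change below 0. From other lists, up to 3 genes per direction with the smallest p and all mitochondrial genome genes are named. The erythroid, neutrophil, macrophage and T cell marker lists gave median log2 fold changes of 0.51, 0.43, 0.15 and 0.88, with overlapping sums except for macrophages.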

Additional observations from a re-analysis of the deposited data

How the results depend on the processing

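With 2 libraries a group, calls rest on the estimate of spread. At an adjusted p under 0.05, DESeq2 called 965 genes and 10 members, and edgeR without the filter on low counts 2000 genes and 12 members, against 0 and 0. RLE scaling and the non-legacy fit called 0 genes and 0 members. Leaving out each library in turn gave 0 to 31 genes, 0 members, 12 to 21 members higher at an unadjusted p under 0.05, and medians of 0.38 to 0.41 for the members, 0.094 to 0.22 for complex II, 0.38 to 0.53 for complex III, 0.45 to 0.55 for complex IV and 0.24 to 0.38 for complex V. Where 1 library remains in a group, it is assumed to vary like the other group.

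Same-numbered libraries share only a number in the labels, since the mice differ. Their deviations from the group means had a Spearman rho of 0.298 over 15167 genes. With the replicate block, 1822 genes and 18 members passed, and with the length offset and the block 438 genes and 1 member, Uqcrq. In the latter fit 11 members were higher at an unadjusted p under 0.05, and the medians were 0.13 for the members, 0.29 for complex III, 0.15 for complex IV and 0.095 for complex V.

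The length offset alone gave 8 members and medians of 0.13 for the members, 0.29, 0.15 and 0.095 for complexes III to V. Without the tissue-restricted isoforms it gave 6 of 42 members and a complex IV median of 0.069. The offset by coding length, chosen after seeing the data, gave 10 members and 0.18, 0.32 for complex III and 0.12 for complex IV. The log2 fold change changed sign, with no call on either side, in 15 members under the length offset: Atp5d (-0.24), Cox7a2l (-0.18), Atp5g1 (-0.14), Cox7a2 (-0.080), Cox5a (-0.063), Uqcrb (-0.061), Uqcrc1 (-0.057), Uqcrfs1 (-0.039), Sdhb (-0.032), Atp5g3 (-0.029), Atp5g2 (-0.021), Cox5b-ps (-0.0073), Cox8a (-0.0034), Atp5a1 (0.067) and Sdha (0.13). With the offset and the block the same 15 members changed sign: Atp5d (-0.24), Cox7a2l (-0.18), Atp5g1 (-0.14), Cox7a2 (-0.078), Uqcrb (-0.069), Uqcrc1 (-0.058), Cox5a (-0.054), Uqcrfs1 (-0.039), Sdhb (-0.032), Atp5g3 (-0.029), Cox5b-ps (-0.022), Atp5g2 (-0.020), Cox8a (-0.0054), Atp5a1 (0.068) and Sdha (0.13). By coding length 10 did: Cox7a2l (-0.25), Atp5d (-0.15), Cox7a2 (-0.11), Atp5g1 (-0.039), Cox8a (-0.038), Sdhc (-0.034), Atp5mpl (-0.012), Uqcrb (-0.0027), Atp5a1 (0.16) and Sdha (0.24). Uqcrc1 turned to -0.0040 with DESeq2, -0.0048 without the filter and -0.0012 with the block. Without 1 library, the range crossed 0 for Uqcrc1 (-0.16 to 0.13), Cox7a2l (-0.16 to 0.18), Atp5a1 (-0.22 to 0.011), Sdha (-0.15 to 0.066), Atp5b (-0.065 to 0.16) and Atp5d (-0.024 to 0.054). The cause of the shift under the length offset was not tested.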
